A study of Mus musculus with 15 samples.

Results

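VSG158, a steroid known here only by its code, was compared with dexamethasone (DEX), a synthetic glucocorticoid, in RAW264.7 cells, an established mouse macrophage-like line. The comparison takes the 3 arrays whose titles name VSG158 and the 3 whose titles name DEX, which is 6 of the 15 arrays of the series, and all noncontrol probes of those arrays. Both groups received their steroid at 100 nM for 1 h and then lipopolysaccharide (LPS), a bacterial cell wall component, at 1 ug/ml for 16 h, per the labels' protocols. The other 9 arrays hold 3 each of vehicle (labelled with the solvents EtOH and DMSO), of fluticasone furoate (FF) and of a second coded steroid, VSG159, both at 100 nM; the vehicle labels name no LPS, while the shared protocol gives it for the cells. The labels number 3 replicates per group, although the series text speaks of duplicates, and they do not say whether replicates were separate cultures, so the p-values measure the spread between these samples, which may be technical.

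Glucocorticoids bind the glucocorticoid receptor, which moves to the nucleus, activates genes such as Fkbp5, Tsc22d3 and Dusp1 at its response elements, and restrains transcription driven by NF-kB and AP-1. In macrophages, LPS acts through Toll-like receptor 4 and induces cytokines, chemokines, inducible nitric oxide synthase and, through interferon beta, the interferon-stimulated genes, and it slows the cell cycle. Compounds that act through the receptor can differ in how far each of these programmes is moved.

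Levels are given as log2 of the processed spot signal minus the 75th percentile of the array, so that 0 is the 75th percentile of an array, and a difference is the VSG158 mean minus the DEX mean on this log2 scale, so that 1 is 2-fold. Levels compare groups for 1 gene and not genes with each other, because each probe has its own brightness. Of the 15 arrays, VSG158 replicate 2 had the fewest spots well above background, 39.6%, against 46.4% to 50.4% on the others. No spot was saturated, and the precision is limited by the 3 arrays per group. Arrays correlated at 0.972 to 0.981 within VSG158 and at 0.981 to 0.984 within DEX, over genes. Between VSG158 and DEX arrays the correlations were 0.973 to 0.983, as high as those within VSG158. VSG158 replicate 3 had 889 spots marked non-uniform, which were set to missing, against 26 to 559 on the other arrays. The 3 VSG158 arrays lay on slide 1 with vehicle and VSG159 replicates 1 and 2, and the 3 DEX arrays on slide 2 with FF and VSG159 replicate 3. VSG158 and DEX share no slide, so that slide and compound cannot be told apart from these 6 arrays. As all samples are bulk RNA, fewer cells expressing a gene and less RNA per cell cannot be told apart. All 17 macrophage markers were measured, and their mean level was 5.25 to 5.34 on the VSG158 arrays and 5.29 to 5.49 on the DEX arrays. None of 6 epithelial markers, 2 of 6 fibroblast, 2 of 8 neutrophil and mast cell, 4 of 10 T and NK cell and 4 of 7 B cell markers passed the filter on dim probes. The B cell marker Ms4a1 was called higher with VSG158 (1.1, SE 0.25, adjusted p = 0.0441, limma) but was above background on 1 VSG158 array and no DEX array, and the call was lost without 12 of the 15 arrays; its part in other results was not tested.

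With VSG158, 5 of 18 cytokine genes, among them Il1a, Il1b and Il6, and 4 of 18 chemokine genes were called lower than with DEX, beside 0.939% of all genes tested. Of 37 DNA replication genes 13 were called higher, beside 1.06% of all genes, as were 10 of 38 mitosis genes, the linker histone H1f5 and haptoglobin. Of 19499 genes tested, 389 (1.99%) differed between the compounds at an adjusted p under 0.05 (limma, all 15 arrays in 1 model, Benjamini-Hochberg), and these are the genes called below. VSG158 was higher for 206 of them (1.06%) and lower for 183 (0.939%), and 91 differed by at least 2-fold, 55 higher and 36 lower. Higher genes made up 53.0% of the calls, against 42.9% of 14 calls after median scaling, 66.3% of 365 after quantile normalization and 75.1% of 334 when the 75th percentile was taken over probes above background on all arrays. The median difference over all genes was -0.07. The 3 VSG158 arrays lay entirely above the 3 DEX arrays for 1245 genes (6.38%) and entirely below them for 2829 (14.5%), and 382 of the 389 called genes were among these. The other 7 lacked a value on a VSG158 or DEX array and were not classed. Of 76 called genes chosen for naming, 25 were called whichever 1 of the 15 arrays was left out and 51 were lost in at least 1 of these fits. The count over all genes was 84 without DEX replicate 3, 140 without DEX replicate 1, 153 without VSG158 replicate 2 and 210 without VSG158 replicate 1. No gene was called when the 6 arrays were fitted alone (smallest adjusted p = 0.121, limma). There 2639 genes had an unadjusted p under 0.05, against 3274 in the model of all 15 arrays. The differences are the same in both fits, so the signs of the 389 genes could not change.

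**Figure D1:**
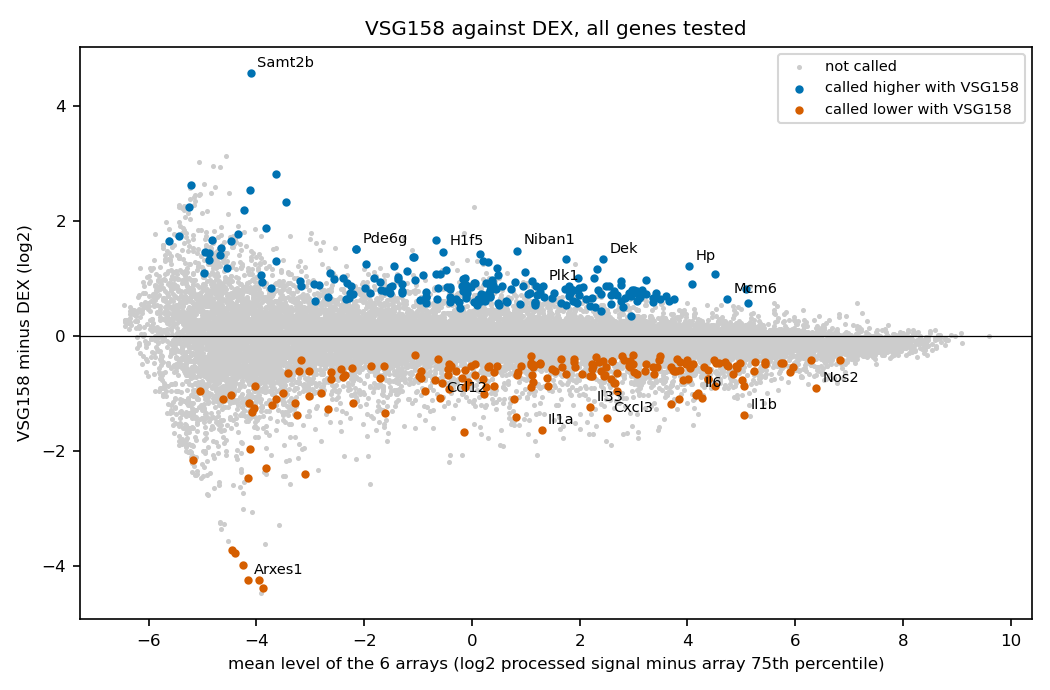
Difference between VSG158 and DEX (log2, y axis) against the mean level over the 6 arrays (log2 relative to the array's 75th percentile, x axis) for the 19499 genes tested; blue points are the 206 genes called higher and orange points the 183 called lower. Cytokine and chemokine genes such as Il1a, Il1b and Cxcl3 lie among the called genes below 0, and Hp, Dek and Niban1 among those above; genes below background in a group are plotted at their measured signal.

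Cytokines of the interleukin 1 family were among the genes called lower with VSG158. Il1a, which encodes interleukin 1 alpha, stood at 0.49, 0.62 and 0.33 on the 3 VSG158 arrays and at 2.29, 1.82 and 2.22 on the 3 DEX arrays. All VSG158 values lay below all DEX values, and the difference was -1.63 (SE 0.18, adjusted p = 0.00212, limma), which is 3.1-fold. Il1b, encoding interleukin 1 beta, stood at 4.20, 4.47 and 4.44 with VSG158 and at 5.84, 5.58 and 5.81 with DEX, a difference of -1.37 (SE 0.15, adjusted p = 0.00212), and the groups did not overlap. A second probe of Il1b that was above background on all 6 arrays gave -1.64, and another, above background on none of them, gave 0.48 without a call. Il6, a cytokine of the acute inflammatory response, stood at 3.74, 3.67 and 3.69 with VSG158 and at 4.63, 4.61 and 4.82 with DEX. Its difference was -0.99 (SE 0.12, adjusted p = 0.00379), again without overlap, and its second probe gave -0.87. Il19, a cytokine of the interleukin 10 family, stood at 0.02, 0.45 and -0.15 against 1.77, 1.31 and 1.47, a difference of -1.41 (SE 0.21, adjusted p = 0.00705). The calls of these 4 genes held when any 1 of the 15 arrays was left out.

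Of 18 measured genes of the proinflammatory cytokine list, 5 were called lower (Il1a, Il1b, Il33, Csf2 and Il6) and 0 higher, with a median difference of -0.39 beside -0.07 over all genes tested. Il33, an alarmin of the interleukin 1 family, differed by -1.24 (SE 0.26, adjusted p = 0.0319), with a second probe at -0.25 (adjusted p = 0.823), and Csf2, the granulocyte-macrophage growth factor, by -1.0 (adjusted p = 0.0166). The count was 3 without VSG158 replicate 1, DEX replicate 1 or DEX replicate 3, and the Il33 call was lost without VSG158 replicate 1 or 3, FF replicate 1 or any 1 DEX array (adjusted p up to 0.112). Tnf, which was not called, stood at 4.53, 4.21 and 4.58 with VSG158 and at 4.68, 4.81 and 4.87 with DEX, a difference of -0.35 without overlap, with a 95% confidence interval of -0.60 to -0.09 (adjusted p = 0.16). The mean level over the 15 members measured on every array was 1.34 to 1.47 on the VSG158 arrays, 1.95 to 2.02 on the DEX arrays and 3.47 to 3.52 on the vehicle arrays.

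Promoter sequence was available from RefSeq (GRCm38.p6) for 24 of 30 named genes called higher and 35 of 46 called lower, and 122 of the 183 genes called lower and 124 of the 206 called higher had a window of 250 bases before to 50 after a start site. Because fewer than 80% of the called genes have a window, a comparison of motif shares between called and other genes is void. For 6 called genes the 160 bases before the start site are printed 5' to 3', each gene with a motif that it holds. They do not stand for the called genes as a whole. Only the motif given for a gene is marked, and matches to the other motifs searched, such as an AP-1 match in Ifit3, are not. Motifs of the glucocorticoid receptor and NF-kB were also searched and are not shown. Capitals mark TGANTCA, an AP-1 motif, in Il1a, Mmp13, Serpinb2 and F3, TTTCNNTTT, an interferon-stimulated response element, in Ifit3, and TTTNGCGC, an E2F motif, in Mcm6, with both strands searched.
Il1a, chr2:129309973-129310132, - strand: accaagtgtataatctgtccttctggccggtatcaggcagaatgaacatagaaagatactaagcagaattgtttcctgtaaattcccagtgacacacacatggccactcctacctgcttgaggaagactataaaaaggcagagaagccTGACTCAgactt
Mmp13, chr9:7272354-7272513, + strand: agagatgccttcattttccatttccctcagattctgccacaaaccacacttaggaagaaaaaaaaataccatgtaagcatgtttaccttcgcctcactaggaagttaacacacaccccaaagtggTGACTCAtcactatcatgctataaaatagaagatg
Serpinb2, chr1:107511263-107511422, + strand: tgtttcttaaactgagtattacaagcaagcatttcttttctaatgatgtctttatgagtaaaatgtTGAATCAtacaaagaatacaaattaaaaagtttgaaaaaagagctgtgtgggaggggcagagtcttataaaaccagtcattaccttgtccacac
F3, chr3:121723377-121723536, + strand: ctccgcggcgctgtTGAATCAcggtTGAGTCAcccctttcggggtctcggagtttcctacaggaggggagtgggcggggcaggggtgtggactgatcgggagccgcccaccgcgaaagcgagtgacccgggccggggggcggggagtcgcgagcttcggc
Ifit3, chr19:34583369-34583528, + strand: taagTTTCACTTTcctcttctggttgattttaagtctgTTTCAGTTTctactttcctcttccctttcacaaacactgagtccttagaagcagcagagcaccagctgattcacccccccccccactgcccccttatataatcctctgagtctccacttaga
Mcm6, chr1:128359706-128359865, - strand: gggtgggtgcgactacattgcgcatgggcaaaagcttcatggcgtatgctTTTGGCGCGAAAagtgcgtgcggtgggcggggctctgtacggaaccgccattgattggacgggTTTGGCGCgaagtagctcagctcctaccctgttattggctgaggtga
The AP-1 match lay 12 bases before the start site in Il1a and 35 before it in Mmp13, and F3 held 2 matches. In Mcm6 the match that begins 110 bases before the start overlaps another on the opposite strand, and a further match begins 47 bases before it. Among all 32851 promoter windows of that table, 7.81% held the AP-1 motif, 10.6% the interferon motif and 1.38% the E2F motif on either strand. A match describes these letters and shows no binding.

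Of the chemokines, Cxcl3, Ccl7, Ccl12 and Ccl6 were called lower with VSG158. Cxcl3, a neutrophil attractant, stood at 1.70, 2.03 and 1.66 with VSG158 and at 3.43, 3.04 and 3.19 with DEX, a difference of -1.42 (SE 0.17, adjusted p = 0.00379). The mean for vehicle was 2.71, so that DEX lay above vehicle and VSG158 below it. Ccl7, a monocyte attractant, stood at 4.47, 4.68 and 4.72 against 5.34, 5.61 and 5.49, a difference of -0.86 (SE 0.09, adjusted p = 0.00212). Ccl12, another monocyte attractant, stood at -1.33, -0.98 and -1.1 against -0.25, 0.05 and 0.02, a difference of -1.08 (SE 0.12, adjusted p = 0.00232). For each of the 3 chemokines the groups did not overlap and the call held without any 1 array. Of 18 measured chemokines, 4 were called lower (with Ccl6, -0.81) and 0 higher, and the median was -0.32. Ccl2 was not called, at 8.21, 8.07 and 7.96 with VSG158 and 8.10, 8.35 and 8.36 with DEX, and its difference was -0.19 (95% interval -0.43 to 0.05). Cxcl10, an interferon-responsive chemokine, differed by -0.84 without reaching the threshold (95% interval -1.29 to -0.38, adjusted p = 0.0662).

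Nos2, the inducible nitric oxide synthase, stood at 5.84, 6.12 and 5.86 with VSG158 and at 6.81, 6.86 and 6.87 with DEX. The groups did not overlap, and the difference was -0.91 (SE 0.12, adjusted p = 0.00579). Serpinb2, an inhibitor of plasminogen activators, stood at 3.23, 3.49 and 3.16 against 4.52, 4.27 and 4.39, a difference of -1.1 (SE 0.12, adjusted p = 0.00212). F3, the tissue factor that starts coagulation, differed by -1.18 (SE 0.24, adjusted p = 0.0292); its DEX mean of 4.28 lay above the vehicle mean of 2.51, as did its VSG158 mean of 3.1. Hilpda, a protein of lipid droplets, differed by -1.02 (SE 0.15, adjusted p = 0.00826). The F3 call was lost without any 1 of the 3 VSG158 arrays, DEX replicate 1 or DEX replicate 3 (adjusted p up to 0.126), whereas those of Nos2, Serpinb2 and Hilpda held without any 1 array. Ptgs2, which makes prostaglandins, was not called (-0.55, 95% interval -1.02 to -0.09, adjusted p = 0.221), nor was Acod1, the itaconate-producing enzyme (-0.20, 95% interval -0.42 to 0.02).

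**Figure D2:**
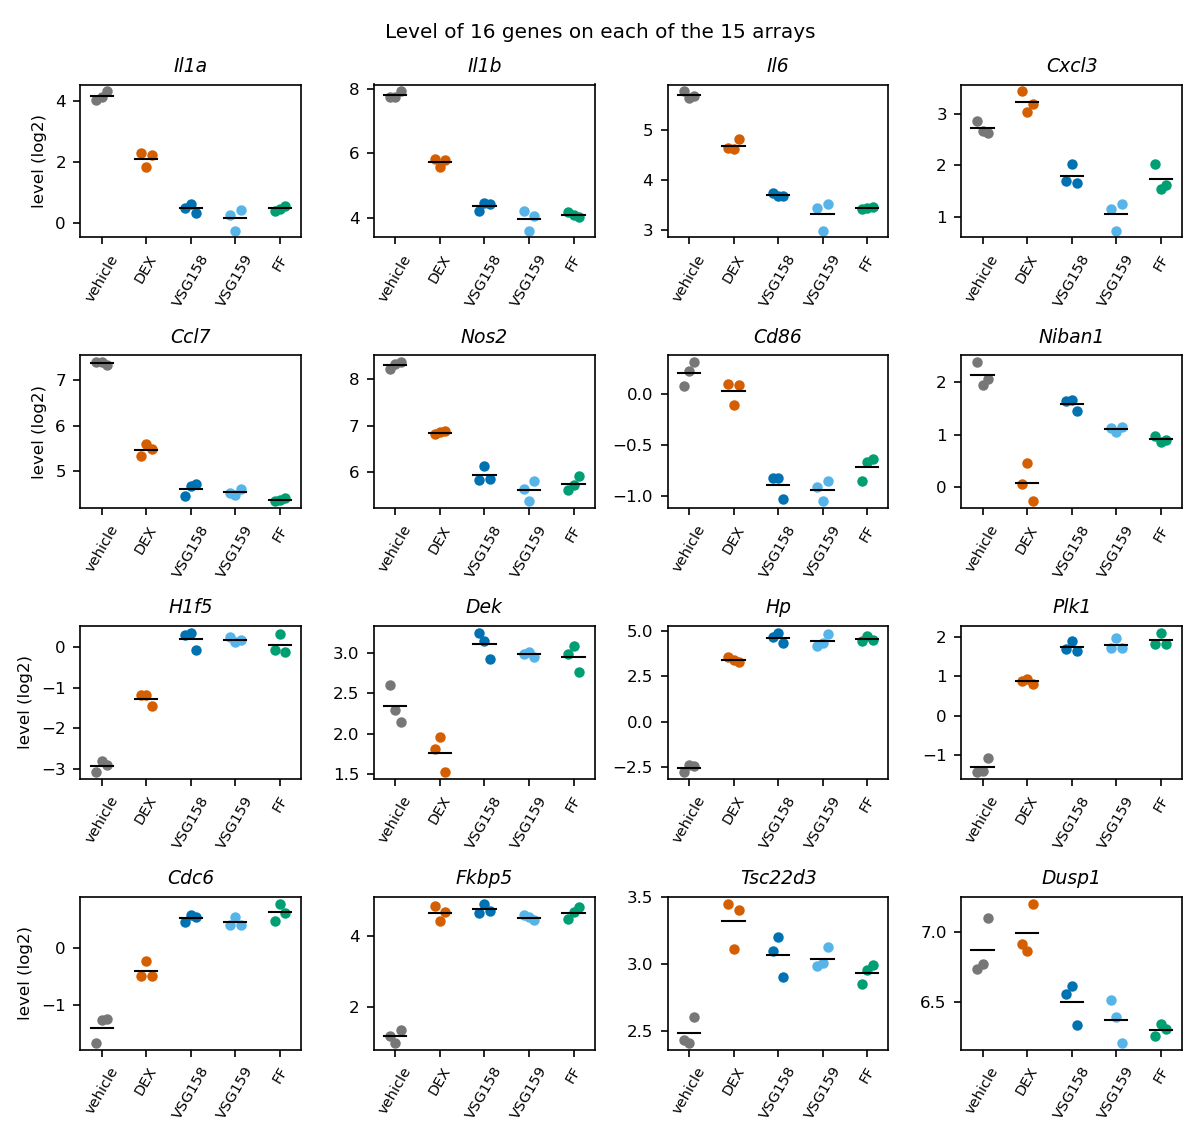
Level of 16 genes (log2 relative to the array's 75th percentile, y axes, which differ between panels and do not start at 0) on each array of the 5 groups; points are arrays and bars group means. Il1a, Il1b, Il6, Cxcl3, Ccl7, Nos2 and Cd86 lie lower with VSG158 than with DEX, Niban1, H1f5, Dek, Hp, Plk1 and Cdc6 higher, and Fkbp5 and Tsc22d3 overlap between the 2 groups.

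Surface molecules that present or restrain T-cell signals had 3 of 13 measured members called lower with VSG158 and 0 called higher, with a median of -0.32. Cd86, a costimulatory ligand, stood at -0.83, -0.82 and -1.03 with VSG158 and at 0.10, -0.11 and 0.09 with DEX, a difference of -0.92 (SE 0.10, adjusted p = 0.00232). Cd274, the checkpoint ligand known as PD-L1, stood at 3.99, 4.27 and 3.98 against 5.05, 4.84 and 4.94, a difference of -0.86 (SE 0.11, adjusted p = 0.00507). Neither gene overlapped between the groups, and both calls held without any 1 array. Tnfrsf9, a costimulatory receptor of the tumour necrosis factor family, differed by -1.33 (SE 0.21, adjusted p = 0.00959). It was not called in the fit that left out DEX replicate 3 (-1.26, adjusted p = 0.0532). Of 12 MAPK phosphatases, 3 were called lower and 0 higher: Dusp14 at -0.67 (adjusted p = 0.00798), Dusp5 at -0.95 (adjusted p = 0.0423) and Dusp4 at -0.45 (adjusted p = 0.0404). A second probe was smaller and uncalled for Dusp5 (-0.06, adjusted p = 0.917) and Dusp4 (-0.11, adjusted p = 0.735), whereas that of Dusp14 was called at -0.48. Dusp14 kept its call without any 1 array, Dusp4 and Dusp5 each lost theirs without 12 of the 15 (adjusted p up to 0.184 and 0.17), and the count for the list ranged from 1 to 4 over the 15 fits that each left out 1 array, falling to 1 in 11 of them and rising above 3 without VSG159 replicate 3. The anti-inflammatory cytokine Il10 was also lower, at 1.26, 1.36 and 1.1 with VSG158 against 1.85, 1.76 and 1.92 with DEX. Its difference was -0.61 (SE 0.10, adjusted p = 0.0118), uncalled when DEX replicate 3 was left out (-0.57, adjusted p = 0.0654).

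Among 39 type I interferon-stimulated genes, 5 were called lower with VSG158 (Ifit3, Ifi205, Mx1, Oasl2 and Parp14) and 1 higher (Trim30a), and the median was -0.27. Ifit3, an antiviral tetratricopeptide protein, stood at 0.87, 0.96 and 1.1 with VSG158 and at 1.62, 1.92 and 2.01 with DEX, a difference of -0.87 (SE 0.12, adjusted p = 0.00586) whose call held without any 1 array. Trim30a, a regulator of Toll-like receptor signalling, was higher by 0.81 (SE 0.17, adjusted p = 0.0309), and a second probe gave 0.74, also called, while another gave -0.49 without a call. The Trim30a call was lost without any 1 VSG158 array, DEX replicate 1 or DEX replicate 3 (adjusted p up to 0.126). The mean level of the list was 2.90 to 2.96 on the VSG158 arrays, 3.15 to 3.27 on the DEX arrays and 4.83 on the vehicle arrays. Ifit1 (-0.27, 95% interval -0.56 to 0.02) and Rsad2 (-0.66, 95% interval -1.26 to -0.06) were not called, and Ifnb1, interferon beta itself, was above background on none of the 6 arrays. The number called lower was 7 without VSG159 replicate 3, 5 without VSG158 replicate 3 and 1 to 3 without any 1 of the other 13 arrays, being 1 without VSG158 replicate 1, VSG158 replicate 2 or DEX replicate 3, and the median turned to 0.05 with slide as a fixed block.

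Of 37 genes for DNA replication and nucleotide synthesis, 13 were called higher and 0 lower, and the median difference was 0.65. The 3 VSG158 arrays lay above the 3 DEX arrays for 27 of them, beside 6.38% of all genes tested. Cdc6, which loads the replicative helicase, stood at 0.45, 0.58 and 0.53 with VSG158 and at -0.51, -0.24 and -0.50 with DEX. The difference was 0.93 (SE 0.13, adjusted p = 0.00567), with no overlap and a call that held without any 1 array. Mcm6, a helicase subunit, stood at 5.07, 5.09 and 5.01 against 4.39, 4.49 and 4.35 (0.65, SE 0.10, adjusted p = 0.0118). Mcm7, another subunit, differed by 0.70 (SE 0.11, adjusted p = 0.0115) and Tk1, the thymidine kinase of S phase, by 0.71 (SE 0.12, adjusted p = 0.0144), both without overlap. Without DEX replicate 3 the calls of Mcm6 (adjusted p = 0.0642), Mcm7 (adjusted p = 0.0524) and Tk1 (adjusted p = 0.0735) were lost, that of Tk1 also without VSG158 replicate 1 or 2. Rrm2, a ribonucleotide reductase subunit, was not called at 0.70 (95% interval 0.32 to 1.08, adjusted p = 0.0648).

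Of 38 mitosis genes, 10 were called higher and 0 lower, and the median was 0.57. Plk1, a kinase of mitotic entry, stood at 1.69, 1.90 and 1.65 with VSG158 and at 0.88, 0.94 and 0.81 with DEX, a difference of 0.87 (SE 0.13, adjusted p = 0.00725) that held without any 1 array. Top2a, the topoisomerase of dividing cells, differed by 0.82 (adjusted p = 0.0199), Espl1, which cleaves cohesin, by 0.87 (adjusted p = 0.0141), and Ccna2, cyclin A2, by 0.96 (adjusted p = 0.0269). Top2a lost its call without VSG158 replicate 1 or 2 or DEX replicate 1 or 3 (adjusted p up to 0.0937), and Espl1 without VSG158 replicate 2 or DEX replicate 1 or 3 (adjusted p up to 0.0735). Counts of called genes depended on single arrays more than the medians did. For replication genes the count was 1 without DEX replicate 3, 4 without VSG158 replicate 1 or 2, 6 and 7 without DEX replicates 1 and 2, and 23 without VSG158 replicate 3, and for mitosis genes it was 1 without VSG158 replicate 2, DEX replicate 1 or DEX replicate 3, 2 without VSG158 replicate 1, 3 without DEX replicate 2, 6 without FF replicate 3 and 19 without VSG158 replicate 3. Leaving out 1 of the 6 VSG158 and DEX arrays gave medians from 0.51 to 0.67 for replication and from 0.46 to 0.73 for mitosis. The other arrays do not enter these differences, so leaving 1 of them out could not change a median.

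The mean level of the replication genes was 2.21, 2.20 and 1.97 on the VSG158 arrays, 1.61, 1.63 and 1.57 on the DEX arrays, and 0.28, 0.23 and 0.27 on the vehicle arrays. Both steroid groups lay above vehicle, and VSG158 above DEX without overlap. For mitosis genes measured on every array it was 0.39, 0.36 and -0.05 with VSG158 and -0.30, -0.36 and -0.37 with DEX. VSG158 replicate 3, the array with many non-uniform spots, was the lowest of its group in both lists. Among G1 cyclins, E2F factors and Myc, 1 of 19 was called higher (E2f8, 0.84, adjusted p = 0.0231) and 1 lower (Mxi1, a Max partner, -0.61, adjusted p = 0.0144), and the median was 0.00. Both calls were lost without VSG158 replicate 1, DEX replicate 1 or DEX replicate 3, that of E2f8 also without VSG158 replicate 2 or DEX replicate 2 (adjusted p up to 0.11 for E2f8 and 0.0753 for Mxi1). Myc was not called (-0.80, 95% interval -1.33 to -0.27, adjusted p = 0.117).

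**Figure D3:**
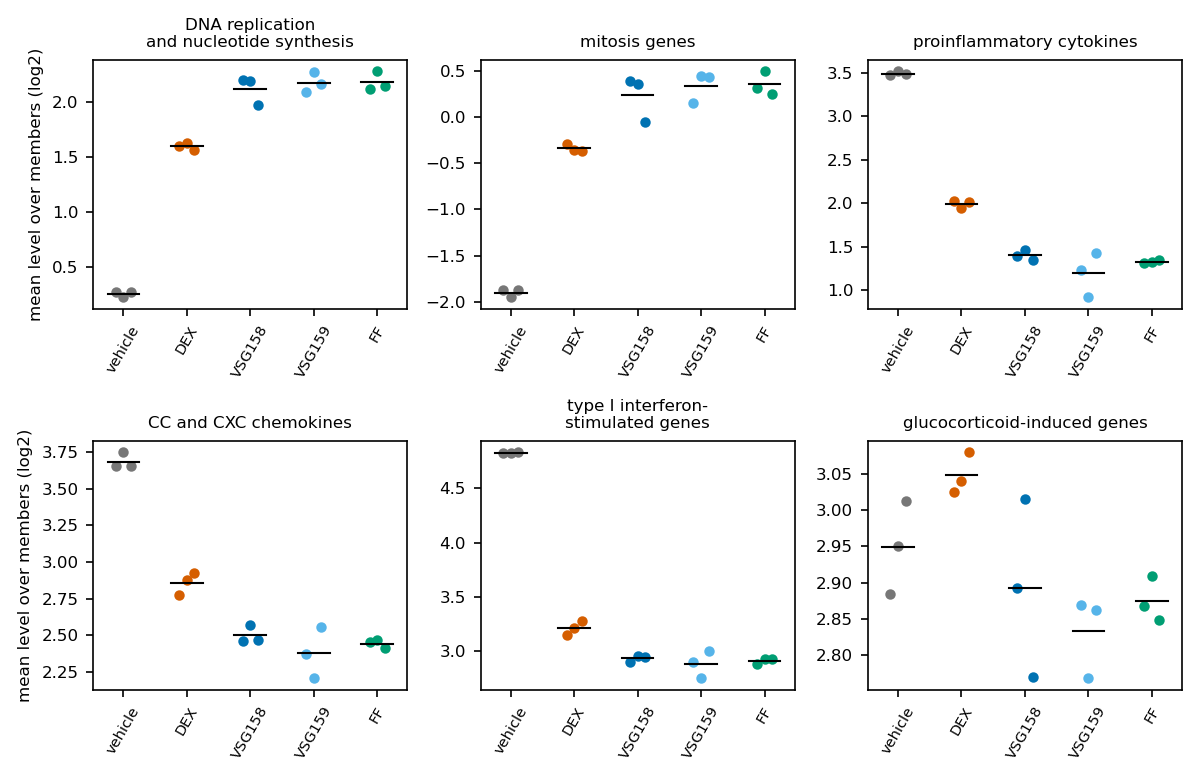
Mean level (log2 relative to the array's 75th percentile, y axes, which differ between panels and do not start at 0) over the members of 6 gene lists measured on all 15 arrays; points are arrays and bars group means. Replication and mitosis genes lie higher, and cytokine, chemokine and interferon-stimulated genes lower, on the VSG158 arrays than on the DEX arrays, with no overlap in these 5 lists; the glucocorticoid-induced genes also lie lower on the VSG158 arrays, at 2.77 to 3.02 against 3.03 to 3.08.

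H1f5, H2ac4, Dek, Ino80b and Nol8 were among the genes called higher with VSG158. H1f5, a linker histone, stood at 0.31, 0.35 and -0.06 with VSG158 and at -1.18, -1.18 and -1.45 with DEX, a difference of 1.47 (SE 0.14, adjusted p = 0.00212). H2ac4, a core histone gene, stood at 2.35, 2.62 and 2.28 against 0.87, 1.31 and 1.06, a difference of 1.34 (SE 0.17, adjusted p = 0.00392); histone genes are near-identical copies of each other, so that this probe may read more than 1 of them. Dek, a chromatin-binding protein, stood at 3.25, 3.15 and 2.92 against 1.81, 1.96 and 1.53, a difference of 1.34 (SE 0.15, adjusted p = 0.00212), and a second probe gave 0.97. None of the 3 genes overlapped between the groups, and their calls held without any 1 array. Ino80b, a subunit of a chromatin remodeller, was higher by 1.29 (SE 0.18, adjusted p = 0.00662) on its brightest probe, but its other probe, above background on all 6 arrays, gave 0.05 (adjusted p = 0.936). Nol8, a nucleolar protein, was higher by 1.30 (SE 0.16, adjusted p = 0.00379).

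Niban1, a stress-responsive protein, stood at 1.64, 1.65 and 1.45 with VSG158 and at 0.06, 0.47 and -0.26 with DEX, a difference of 1.49 (SE 0.16, adjusted p = 0.00212). Its vehicle mean was 2.13, above both. Hp, haptoglobin, an acute-phase protein that binds haemoglobin, stood at 4.69, 4.90 and 4.33 against 3.55, 3.41 and 3.30, a difference of 1.22 (SE 0.19, adjusted p = 0.00959). Its vehicle mean was -2.52, far below both, and its call was lost without DEX replicate 3 (1.16, adjusted p = 0.0532). Of 13 acute-phase genes measured, Hp alone was called higher and Serpinb2 alone lower, the median was 0.06, Lcn2 differed by -0.01 and Saa3 by 0.06. Serpina3g, a protease inhibitor, was not called at 0.95 (95% interval 0.41 to 1.49, adjusted p = 0.0757), although its arrays did not overlap. Tob2, an antiproliferative protein, differed by 1.38 (SE 0.18, adjusted p = 0.00449), and Usp42, a deubiquitinating enzyme, by 1.43 (SE 0.19, adjusted p = 0.00571). For each of the pair another probe, above background on all 6 arrays, had the opposite sign without a call (-0.43 for Tob2 and -0.21 for Usp42), while a further Usp42 probe gave 1.02 (SE 0.27, adjusted p = 0.0759), also uncalled.

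Some of the called genes were above background with 1 of the compounds and not the other. Samt2b was above background on the 3 VSG158 arrays and on none of the DEX arrays, with a measured signal at least 5.56-fold higher with VSG158, and Gask1a was at least 2.65-fold higher. Arxes1 was above background on the 3 DEX arrays and on none of the VSG158 arrays, and was at least 4.12-fold lower with VSG158. These bounds set the bright group's mean against a floor on each array of the dim group, which is the probe's own signal or the dimmest signal counted as above background, whichever is larger. Samt2b lost its call without VSG158 replicate 2 or 3 or any 1 DEX array, Arxes1 without VSG158 replicate 1 or DEX replicates 1 or 3, and Gask1a without 12 of the 15 arrays. For 42 other tested probes of the called genes chosen for naming, 17 were called in the direction of the gene's value and 18 differed in that direction uncalled, while 7 differed in the opposite direction, 0 of them called.

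Of the 33 measured genes that glucocorticoids are known to induce, 0 were called in either direction, beside 1.99% of all genes tested. At that share a list of this size may hold no called gene. The median of the 33 was -0.07, equal to that of all genes at this rounding. Their mean level was 2.89, 3.02 and 2.77 on the VSG158 arrays and 3.03, 3.04 and 3.08 on the DEX arrays, which did not overlap, although the highest VSG158 array lay next to the lowest DEX array. Fkbp5, the receptor's co-chaperone and a standard target, stood at 4.66, 4.92 and 4.72 with VSG158 and at 4.87, 4.44 and 4.68 with DEX, beside a vehicle mean of 1.16. The groups overlapped, and the difference was 0.11 with a 95% interval of -0.19 to 0.40. Tsc22d3, which encodes the leucine zipper protein GILZ, stood at 3.1, 3.20 and 2.91 against 3.45, 3.11 and 3.40 (-0.25, 95% interval -0.49 to -0.01, adjusted p = 0.281). A second Tsc22d3 probe, above background on all 6 arrays, gave 0.03 (adjusted p = 0.926, limma). Klf9, a transcription factor, differed by 0.06 (95% interval -0.18 to 0.31), with a second probe at -0.15 (adjusted p = 0.751, limma). The clock gene Per1 differed by -0.24 (95% interval -0.64 to 0.16). Dusp1, the phosphatase that switches off p38, stood at 6.55, 6.62 and 6.33 against 6.92, 6.86 and 7.21; its arrays did not overlap, but it was not called (-0.49, 95% interval -0.78 to -0.20, adjusted p = 0.0839), nor was Zfp36, which destabilises cytokine mRNA (-0.55, 95% interval -0.89 to -0.21, adjusted p = 0.0976). The receptor gene Nr3c1 differed by -0.18 on its brightest probe (95% interval -0.46 to 0.09), whereas a second probe, above background on all 6 arrays, was called higher at 0.69 (SE 0.13, adjusted p = 0.02, limma). The probes disagree in sign, so no direction is given for Nr3c1. These intervals do not show that the compounds act alike on these genes.

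**Figure D4:**
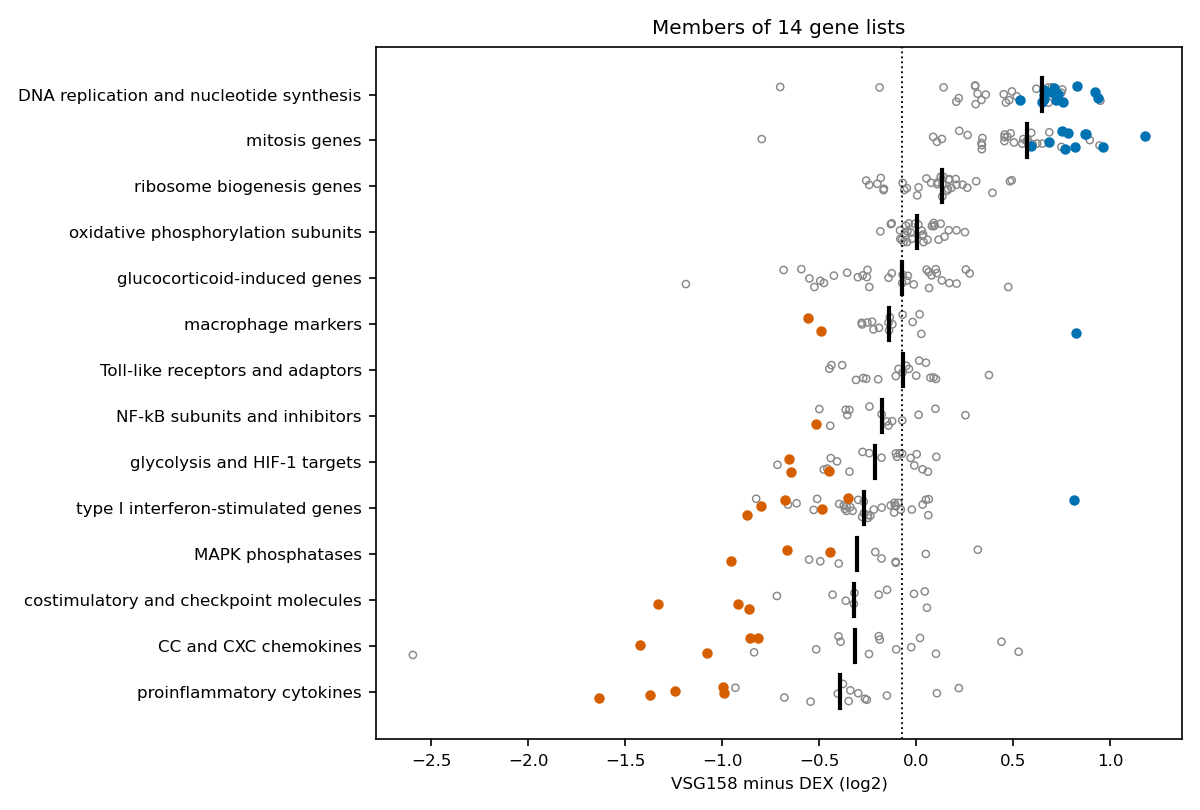
Difference between VSG158 and DEX (log2, x axis) for each measured member of 14 gene lists (rows, with vertical scatter only to separate points); filled points are called genes, blue higher and orange lower, open points are not called, thick bars are list medians and the dotted line is the median of all genes, -0.07. Replication and mitosis genes lie to the right, with medians of 0.65 and 0.57, and cytokines lie farthest to the left, with a median of -0.39.

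In several other lists no gene was called on its brightest probe, beside 1.99% of all genes tested. At that share lists of these sizes may hold no called gene. None of 32 oxidative phosphorylation subunits was called (median 0.00), none of 29 cytosolic ribosomal proteins (-0.11), none of 32 ribosome biogenesis genes (0.13), none of 29 sterol and fatty acid synthesis genes (0.05), none of 19 Toll-like receptors and adaptors (-0.07) and none of 26 lysosomal genes (-0.10). A second probe was called for Dkc1 (1.32, adjusted p = 0.0057), of ribosome biogenesis, Stard4 (0.59, adjusted p = 0.0428), of sterol transport, and Traf6 (-0.55, adjusted p = 0.0399), a Toll-like receptor adaptor, each above background on all 6 arrays. With Nr3c1 these are the 4 uncalled genes among those chosen for naming that had a called second probe; for other list members only the brightest probe was read. Glycolysis genes and targets of HIF-1 had 3 of 22 called lower, namely Vegfa (-0.65), Ero1a (-0.65) and Pfkp (-0.45), with a median of -0.21; the count was 0 without DEX replicate 1 or 3 and 1 without DEX replicate 2 or any 1 VSG158 array. Of 17 macrophage markers, the Fc receptors Fcgr1 (-0.56, adjusted p = 0.02) and Fcgr3 (-0.49, adjusted p = 0.0379) were called lower and Laptm5, a lysosomal membrane protein, higher (0.82, adjusted p = 0.0267), with a median of -0.14. Fcgr1 and Laptm5 lost their calls without VSG158 replicate 1 or 2 or DEX replicate 1 or 3 (adjusted p up to 0.106 and 0.125), and Fcgr3 without 11 of the 15 arrays (adjusted p up to 0.118). The alternative activation marker Mrc1 was called lower (-0.87, adjusted p = 0.035) but was above background on 1 VSG158 array and 2 DEX arrays, and Arg1 was above background on none of the 6.

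Slide could be entered as a term only through VSG159, whose replicates lie on both slides, so that the term rests on VSG159 replicate 3 against replicates 1 and 2. With slide as a fixed block 328 genes were called higher (1.68%) and 601 lower (3.08%). Of the 389 genes, 80 were called again in the same direction, and all 389 kept the sign of their difference. The VSG159 arrays that set the slide term also enter the spread behind the calls. A slide term large enough to turn a difference would have widened that spread, so a called gene could hardly change sign. Of the 76 called genes chosen for naming, 19 were called again, among them Il1a (-1.21, adjusted p = 0.043), Il1b (-1.22, adjusted p = 0.035), Ccl12 (-1.08, adjusted p = 0.031), Ccl7 (-0.76, adjusted p = 0.031), Serpinb2 (-1.06, adjusted p = 0.028), Cd86 (-0.79, adjusted p = 0.042), Niban1 (1.55, adjusted p = 0.026), H1f5 (1.45, adjusted p = 0.023), Dek (1.30, adjusted p = 0.031), Hp (1.79, adjusted p = 0.017), Top2a (1.12, adjusted p = 0.041) and Mcm7 (0.81, adjusted p = 0.049). Samt2b (adjusted p = 0.655) and Gask1a (adjusted p = 0.792), above background on no DEX array, were not called there, and the difference of Bhlhe40, a clock regulator, moved from -0.72 to -0.15. The medians of the replication and mitosis lists were 0.72 and 0.82 and that of the cytokines -0.27, beside 0.07 over all genes. Most calls in these lists were lost. Of 37 replication genes 3 were called higher, against 13 without the slide term, and of 38 mitosis genes 1, against 10. Of 18 cytokines 2 were called lower, against 5. With slide as a random block no gene was called (smallest adjusted p = 0.083, 2984 genes at an unadjusted p under 0.05).

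**Figure D5:**
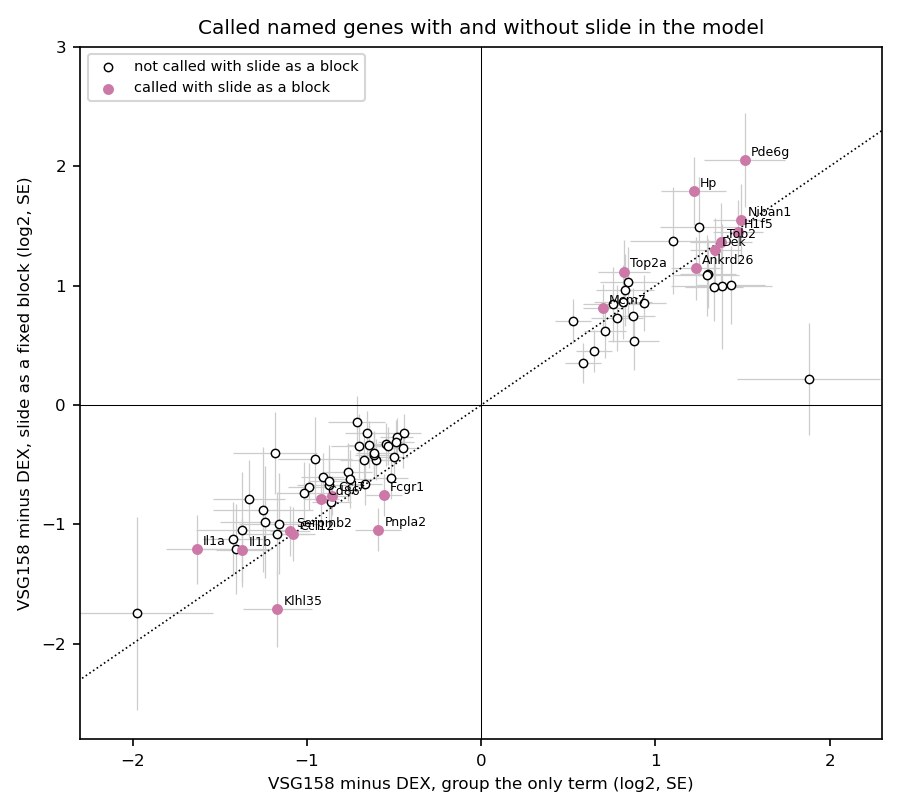
Difference between VSG158 and DEX (log2) for the called genes chosen for naming, with group as the only term (x axis) and with slide as a fixed block (y axis); bars are standard errors, filled points are the 19 genes called again, the dotted line marks equal values, and 2 of the 76 genes lie outside the axes. Every gene shown keeps its sign, which the choice of called genes made likely, and Il1b, Serpinb2, Dek and H1f5 lie close to the line.

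FF, a glucocorticoid drug, was hybridised on the same slide as DEX, and FF minus DEX uses the same 3 DEX arrays, so that its values are given beside those of VSG158 without a measure of likeness. In that comparison 362 genes (1.86%) were called higher and 445 (2.28%) lower. Against DEX, Il1a was lower by a difference of -1.64 with FF and -1.63 with VSG158, Il1b of -1.66 and -1.37, Il6 of -1.25 and -0.99, Nos2 of -1.1 and -0.91, and H1f5 was higher by 1.32 and 1.47. Hp was higher by 1.17 with FF and 1.22 with VSG158, Plk1 by 1.04 and 0.87, and Niban1 by 0.83 and 1.49. The replication list had 23 of 37 members called higher with FF (median 0.67) and the mitosis list 16 of 38 (median 0.70). Slide does not separate FF from DEX, but array position does, with FF at positions 2 to 4 of slide 2 and DEX at positions 5 to 7.

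Vehicle means were set beside those of both compounds. Of the 183 genes called lower with VSG158, the vehicle mean lay above both compounds for 132 (72.1%), beside 44.0% of all genes whose difference was below 0. Of the 206 called higher, the vehicle mean lay below both for 102 (49.5%), above both for 57 and between them for 47, beside 44.1% below both among all genes whose difference was above 0. The 3 vehicle arrays share slide 1 with VSG158 and not with DEX.

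Genes were also grouped by their response to VSG159, from replicates 1 and 2 against vehicle on slide 1. These arrays enter neither the VSG158 nor the DEX mean, but they do enter the spread behind the calls. Of 4262 genes higher with VSG159 than with vehicle, 110 (2.58%) were called higher with VSG158 than with DEX and 1 (0.0235%) lower. Of 5525 genes lower with VSG159, 32 (0.579%) were called higher and 142 (2.57%) lower. Of 9475 genes with neither response, 64 (0.675%) were called higher and 36 (0.38%) lower, beside 1.06% and 0.939% of all genes tested. The median differences in these groups were -0.02, -0.11 and -0.07. The pattern turned with slide as a fixed block, but the slide term there is estimated from the same VSG159 arrays that set the groups. With it, 49 (1.15%) were called higher and 386 (9.06%) lower in the first group. In the second group 202 (3.66%) were called higher and 36 (0.652%) lower, beside 1.68% and 3.08% of all genes.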

How the data were processed

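Single-colour (Cy3) Agilent arrays were read from the scanner files. Per the file headers, the authors scanned them with Feature Extraction 10.7.3.1, whose processed signal intensity is background-subtracted and detrended within an array. The deposited value table holds normalized log2 values and was used as an alternative alone. Limma, with no version, is named in the submitters' processing notes. Array design and headers name build mm9; coordinates printed are RefSeq's, in GRCm38.p6.

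Of 62976 spots per array 3671 were controls. Spots marked as non-uniform or population outliers were set to missing, spots of a probe averaged, and log2 signal scaled to the array's 75th percentile. The 28508 probes tested were those marked by the scanner software as well above background on 2 or 3 arrays of some group, and a gene took its brightest tested probe. Limma 3.58.1 (R 4.3.3) fitted group as the only term over all 15 arrays (residual degrees of freedom 10, prior 1.64). P-values were two-sided, adjusted by Benjamini-Hochberg over 19499 genes. VSG158 against DEX was the main comparison. FF against DEX, and VSG159 replicates 1 and 2 against vehicle, were also fitted. The fit was tested on simulated data with independent noise and no slide or position effect, so that test does not bear on slide.

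The genes to be named were the 15 largest called differences in each direction without overlap (brighter group above background on its 3 arrays; predicted and clone names skipped), a set of key genes, and up to 3 examples per list; Csf2, Ccl6, Ccna2, Lcn2, Saa3 and list members given by name in counts were added after their values were seen. The gene lists, key genes and members were chosen with earlier results of these data known, and lists were described by counts and medians. Alternatives covered scaling, background, filter, probe choice, arrays fitted, slide, array position, replicate number and each array left out.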

Additional observations from a re-analysis of the deposited data

How the results depend on the processing

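All 389 called genes kept the sign of their difference under every scaling and with slide as a fixed or random block. With normexp 387 did, with the mean of all tested probes 377, and with slide and array position fitted together 350. The 6 arrays alone give the same differences, so that no sign could change there. Median scaling and the 75th percentile over probes above background shift genes measured on all 6 arrays alike. They moved the median over all genes from -0.07 to -0.11 and 0.01. The smallest called difference was 0.32 in size, so no sign of such a gene could change. With slide as a block a called gene could hardly change sign, because the VSG159 arrays behind that term enter the spread. The count of 389 called genes (206 higher, 183 lower, 91 at least 2-fold) depended on the processing. Calls were 14, 6, 8 and 14 (in that order) after median scaling, 78, 51, 27 and 46 without the filter on dim probes, 929, 328, 601 and 764 with slide as a fixed block, and 40, 30, 10 and 32 on position-matched arrays. They were 0 for all 4 counts with the 6 arrays alone, with slide as a random block, and with slide and position together (574 genes at an unadjusted p under 0.05 in limma, smallest adjusted p = 0.999). Position as a covariate gave 740 calls, 455 lower. The deposited value table gave 233, 91 lower. Above background on all arrays of both groups gave 277 lower and 47 at least 2-fold, normexp gave 46 at least 2-fold, and the 75th percentile over probes above background gave 83 lower. Leaving out 1 array gave 84 to 572 calls, 50 to 257 higher, 34 to 318 lower and 34 to 131 at least 2-fold. With the replicate block the counts were 223, 133 and 90, and 215 calls were shared with the fit without it. Same-numbered arrays correlated at 0.229, -0.034 and 0.234 in their deviations from the group means, so the numbers were not taken as pairs.

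Some values changed sign, and the cause was not tested. Quantile normalization turned the medians of the stress response list (0.015), lysosomal genes (0.034) and macrophage markers (0.0062). The 75th percentile over probes above background turned those of interferon regulatory factors (0.00072) and stress response (0.017), the latter also with the deposited values (0.014). Slide as a fixed block turned those of interferon-stimulated genes (0.047), interferon regulatory factors (0.22, and 0.086 as a random block), mRNA decay factors (0.043), AP-1 factors (0.044) and lysosomal genes (0.015). Slide with position turned Ceacam2 (-0.34), Trim30a (-0.057), Dusp4 (0.14), Nfkb2 (0.048), Socs5 (-0.21), Ero1a (0.073), Bhlhe40 (0.036) and Laptm5 (-0.30), and the medians of interferon regulatory factors (0.12), MHC class I (0.031), ribosome biogenesis (-0.085), stress response (0.0015) and clock genes (0.042). Genes were also grouped by an at least 2-fold response to VSG159 with slide as a fixed block, an alternative chosen after seeing the data. Among genes raised by VSG159, 24 (0.977%) were called higher and 330 (13.4%) lower. Among genes lowered, 84 (3.66%) were called higher and 15 (0.653%) lower.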
